A study of Mus musculus with 8 samples.

Results

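10 regulators of epithelial identity, chosen by name, were followed through the acetylated chromatin of 4 mouse breast tumors: the ETS factors Elf3 and Ehf, the grainyhead-like factors Grhl1, Grhl2 and Grhl3, the zinc finger factors Ovol1, Ovol2 and Klf5, and the splicing regulators Esrp1 and Esrp2. These 10 genes stand among 21938 protein-coding genes. For each gene, all peaks of acetylated histone H3 lysine 27 (H3K27ac) in the gene body and in the 50 kb on either side were collected in every tumor. The rule names the genes and sets no threshold on a measured value.

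The 4 tumors came from Balb/c mice that carried the polyoma middle T oncogene under the MMTV promoter (PyMT), which drives mammary tumors, and that lacked Rag1 (Rag1KO), so that they had no T or B cells of their own. Wild type CD4+ T cells had been given to all hosts when they were 4 weeks old. The 2 control tumors were PyMT;Rag1KO. The 2 test tumors were K14-TSLPtg;PyMT;Rag1KO, with thymic stromal lymphopoietin (TSLP), an epithelial cytokine, driven by the keratin 14 promoter of basal epithelium. Each tumor came from its own mouse, and whole tumor pieces were used, so stroma and infiltrating cells were included. In their titles the control tumors are named tumor and the test tumors cyst. Grade and cellular composition of the 4 tumors are not in the labels.

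Acetylation of H3K27 marks active promoters and enhancers, and broad acetylated domains often lie over genes that define a cell type. The members act in a connected program. Grainyhead-like factors open chromatin at epithelial enhancers and activate junction genes such as Cdh1, Ovol factors repress Zeb1 and other drivers of epithelial-mesenchymal transition (EMT), Elf3 and Ehf activate epithelial differentiation genes, Klf5 supports epithelial growth and luminal gene expression, and the Esrp proteins direct the epithelial splice forms of transcripts such as Fgfr2 and Cd44.

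The peak lists held 69861 and 67850 intervals in the controls against 65763 and 59762 in the test tumors. The intervals covered 2.68% and 2.49% of the genome in the controls against 2.68% and 2.36% in the test tumors. The peak lists hold positions alone, so read depth and peak height are unknown here, and a more deeply sequenced tumor can have more and wider peaks. The labelled tissue was checked on markers. Of 7 luminal epithelial markers, 7 had a promoter peak in all 4 tumors, and 0 of 6 hepatocyte markers had one in any tumor. Of 6 neuronal markers, 1 (Gad1) had a promoter peak, in control 2 alone. Within 10 kb of the start, mean coverage of fibroblast, endothelial, myeloid and T cell markers was lower in both test tumors, while over the window it overlapped for fibroblast, myeloid and T cell markers, as given with the gene lists at the end.

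The mean coverage of the members was above that of all genes in every tumor, and it overlapped between the 2 groups. The mean share of the windows in peaks was 15.6% and 14.7% in the controls against 17.1% and 14.3% in the test tumors. Over all 18693 protein-coding genes with any coverage it was 6.84%, 6.75%, 7.23% and 6.12% in the same order of tumors. The members and the whole set of genes therefore had the same order of tumors, with test 1 highest and test 2 lowest. The groups did not overlap for 3 members: Ehf and Esrp1 were higher in both test tumors, and Ovol1 was higher in both control tumors. Among all genes, 17.3% were higher in both test tumors and 13% in both control tumors, so 2 and 1 of 10 members were near that background. The median difference of the members (test minus control) was 0.31 percentage points, against 0.019 over all genes. It was −0.29 without control 2 and −1.80 without test 1. With 2 tumors against 2, the smallest two-sided p of an exact permutation test is 0.333, so no single gene can pass a threshold of 0.05. In whole tumors, fewer cells of a type and less acetylation per cell cannot be told apart.

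**Figure D1:**
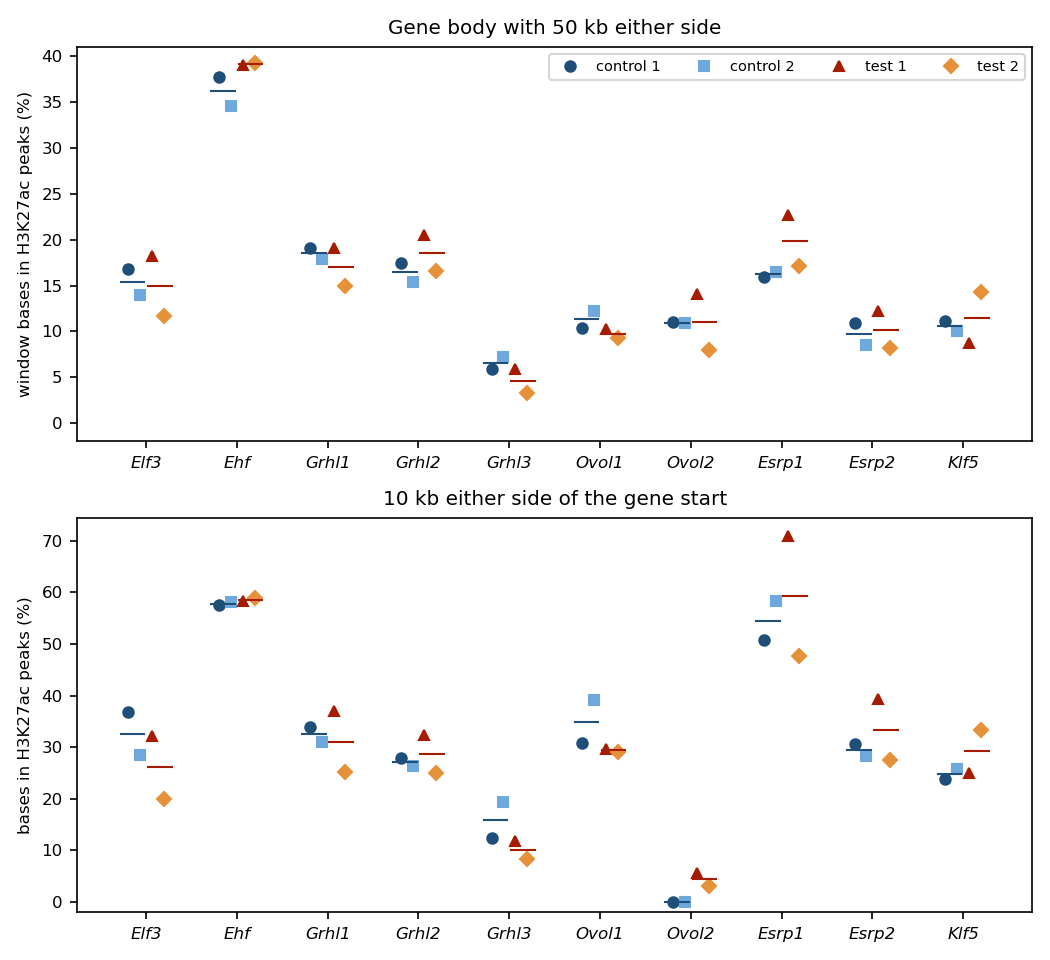
Share of bases in H3K27ac peaks (percent, vertical axis) for each member (horizontal axis), in the gene body with 50 kb either side (top) and in the 10 kb either side of the gene start (bottom). Each symbol is a tumor and each short line the mean of a group of 2 tumors. Ehf stood highest and Grhl3 lowest in the top panel in all 4 tumors, and near the start Ovol2 was at 0 in both control tumors.

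The members covered a wide range of levels. Averaged over the 4 tumors, the window share was 37.7% for Ehf, 18.1% for Esrp1, 17.8% for Grhl1, 17.5% for Grhl2, 15.2% for Elf3, 11.04% for Klf5, 11.01% for Ovol2, 10.5% for Ovol1, 9.94% for Esrp2 and 5.55% for Grhl3. Ehf was the highest member and Grhl3 the lowest in 4 of 4 tumors. Between those ends, neighbours in this order overlapped over the tumors. Among all protein-coding genes Ehf was at percentile 99.8 and Grhl3 at percentile 62.6. Several windows also hold the starts of other protein-coding genes: Rnpep in that of Elf3, Klf11 with Grhl1, Stpg1 and Nipal3 with Grhl3, 1700020D05Rik, Snx32, Ap5b1, Rnaseh2c and Kat5 with Ovol1, Mgme1, Snx5, Kat14 and Pet117 with Ovol2, Dpy19l4 with Esrp1, and Pla2g15 and Slc7a6 with Esrp2. No other protein-coding gene starts in the windows of Ehf, Grhl2 and Klf5.

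Ehf, an ETS factor of glandular epithelium, was acetylated over nearly its whole length. Peaks covered 96.5% and 91.8% of its gene body in the controls against 98.3% and 99.5% in the test tumors. The gene spans 39.8 kb (chr2:103263433-103303278, minus strand, mm10). A peak interval of 39012 bp ran from before the start across most of the gene in control 1, and intervals of 39172 and 39218 bp did so in test 1 and test 2. In control 2 the same stretch was broken, and its widest interval was 23661 bp. By width these were the 3rd and 12th of all intervals in the controls, and the 2nd in each test tumor. The union of the domain spanned 39257 bp (chr2:103265525-103304781). Window coverage was 37.8% and 34.6% in the controls against 39.1% and 39.2% in the test tumors. Coverage was thus 2.96 percentage points higher in the test group, with single pairs of tumors between 1.29 and 4.63 apart (exact permutation, p = 0.333). With intervals within 1 kb joined the difference was 1.36 points, and with 100 kb flanks the groups overlapped. A further domain of 10864 bp beyond the 3′ end (chr2:103205963-103216826), present in all 4 tumors, reached from outside into the window, which begins at 103213433.

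Elf3, the other ETS factor, had 15 regions in its window, 8 of them in all 4 tumors. Window coverage was 16.8% and 14% in the controls against 18.2% and 11.7% in the test tumors. Both controls thus fell between the test tumors. Within 10 kb of the start, coverage was 36.8% and 28.4% in the controls against 32.3% and 19.9% in the test tumors. The groups overlapped there too (difference −6.54 points, exact permutation, p = 0.667). Its widest own region was intergenic, 31.4 kb downstream of the start (chr1:135225077-135229184, 4108 bp), and the widest of the window lay over the start of Rnpep (chr1:135280227-135284399, 4173 bp).

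Grhl2, the grainyhead-like factor most tied to mammary and other simple epithelia, carried a broad domain inside the gene. The domain lay about 76.4 kb downstream of the start, over exons and introns (chr15:37302983-37315937, 12955 bp). Peaks covered 11900 and 9698 bp of it in the controls against 12823 and 11044 bp in the test tumors. The widest single interval of the window was 7851 and 6601 bp in the controls against 12823 and 8653 bp in the test tumors, so intervals were longer in both test tumors while the covered length overlapped between the groups. Further regions, of 3857 and 8143 bp, followed it without a long gap in all 4 tumors. Window coverage was 17.4% and 15.4% in the controls against 20.5% and 16.6% in the test tumors, which overlapped. When each tumor was scaled to the share of the genome its peaks covered, both test tumors were higher (difference 2.53 points).

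Grhl1 showed no such order. Window coverage was 19.1% and 17.9% in the controls against 19.1% and 14.9% in the test tumors. Test 1 fell between the control tumors and test 2 was lowest. Its widest region lay 20.1 kb inside the gene (chr12:24589550-24595251, 5702 bp), present in all 4 tumors. Of its 25 regions, 12 were in all 4 tumors and 11 in a single tumor, 6 of these in control 2. With the scaled coverage, both control tumors were higher (difference −1.15 points).

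Grhl3, the member best known from the skin barrier, had the lowest window coverage of the members, and near its start the control tumors had more. Within 10 kb of the start, coverage was 12.5% and 19.3% in the controls against 11.9% and 8.30% in the test tumors. The groups did not overlap, although for the closest pair of tumors test minus control was −0.57 points (mean difference −5.80 points, exact permutation, p = 0.333). The gene body gave the same order, with 12.7% and 16.7% against 11.5% and 5.88%. In the whole window the groups overlapped, at 5.85% and 7.17% against 5.90% and 3.30%. The region over the start (chr4:135572041-135573674, 1634 bp) held 816 and 1634 bp of peak in the controls against 958 and 387 bp in the test tumors. Its widest region, 2363 bp (chr4:135493218-135495580), lay over the starts of Stpg1 and Nipal3 and was present in all 4 tumors. The bases just before the RefSeq start (chr4:135573633-135573882, mm10, minus strand, written 5′ to 3′) are shown because the reach of acetylation past the start differed: 42 bp of them were in a peak in control 2 and 0 in the other 3 tumors. Capitals mark letters of the searched motifs, CCACCC of KLF factors and CACCTG of ZEB factors.
Grhl3 upstream: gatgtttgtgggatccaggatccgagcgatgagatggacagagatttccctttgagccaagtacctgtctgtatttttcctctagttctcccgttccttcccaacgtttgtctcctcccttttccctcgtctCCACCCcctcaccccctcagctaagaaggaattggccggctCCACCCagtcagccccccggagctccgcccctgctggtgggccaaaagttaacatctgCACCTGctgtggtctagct

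Ovol2 was the 1 member whose promoter had a peak in 1 group alone. This promoter, taken as 1 kb either side of the start, held a peak in both test tumors and in neither control tumor. Coverage of that promoter was 0% and 0% in the controls against 47.5% and 26.1% in the test tumors. The region began 51 bp inside the gene (chr2:144330976-144332095, 1120 bp, minus strand) and spanned exons, UTR and intron at the 5′ end of Ovol2. Peaks covered 1120 bp of it in test 1, and 632 bp in 2 intervals in test 2. No interval touched the gene body in either control tumor, where its coverage was 0%, against 5.04% in test 1 and 2.34% in test 2. Over all protein-coding genes, a promoter peak in both test tumors and neither control tumor was found for 0.301% (66 of 21938), and the reverse for 0.533%. Among the members this was 1 and 0 of 10. The test 2 intervals were narrow, and with intervals of at least 1 kb alone no member promoter was test-only. A peak missing from a list means that the caller's threshold was not passed, not that acetylation was absent.

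The longest stretch of this region that lay in the peaks of both test tumors and outside annotated UTR is shown as an example of the bases that differed (chr2:144331036-144331302, mm10, 267 bp, minus strand, 5′ to 3′). It lies in annotated Ovol2 exons, is 73.4% GC and holds 34 CpG. It has no capitals because none of the 6 searched motifs occurs in it.
Ovol2 test-only: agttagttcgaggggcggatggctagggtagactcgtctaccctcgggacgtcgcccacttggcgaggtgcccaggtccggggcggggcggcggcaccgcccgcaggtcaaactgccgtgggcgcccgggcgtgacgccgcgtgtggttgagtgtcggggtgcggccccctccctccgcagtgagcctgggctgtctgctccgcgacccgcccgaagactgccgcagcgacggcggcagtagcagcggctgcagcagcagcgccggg
The RefSeq start of Ovol2 is 784 bp inside the GENCODE start and also within the region. Of the 250 bases before that start, 250 were in a peak in test 1, 28 in test 2 and 0 in both control tumors. Most of the acetylation in the Ovol2 window was elsewhere, over Snx5 and Mgme1 at the far end (chr2:144262489-144271623, 9135 bp, in all 4 tumors). The whole window showed no order of the groups, with 11.02% and 10.9% in the controls against 14.1% and 7.99% in the test tumors.

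Ovol1, the paralog of Ovol2 that is prominent in stratified epithelium, went the other way. Window coverage was 10.4% and 12.3% in the controls against 10.3% and 9.24% in the test tumors, and for the closest pair of tumors test minus control was −0.11 points (mean difference −1.57 points, exact permutation, p = 0.333). Within 10 kb of the start it was 30.8% and 39.1% in the controls against 29.7% and 29.2% in the test tumors. At the promoter itself the shares were 80.0% and 99.0% against 70.7% and 69.7%, so both control tumors were higher on all 3 scales. The region over the start was the widest of the window (chr19:5559667-5562425, 2759 bp), with 2363 and 2759 bp of peak in the controls against 1928 and 1826 bp in the test tumors. Of its 11 regions, 8 were in all 4 tumors and 0 in the tumors of 1 group alone. The order was lost with 100 kb flanks, with nearby intervals joined and after scaling.

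**Figure D2:**
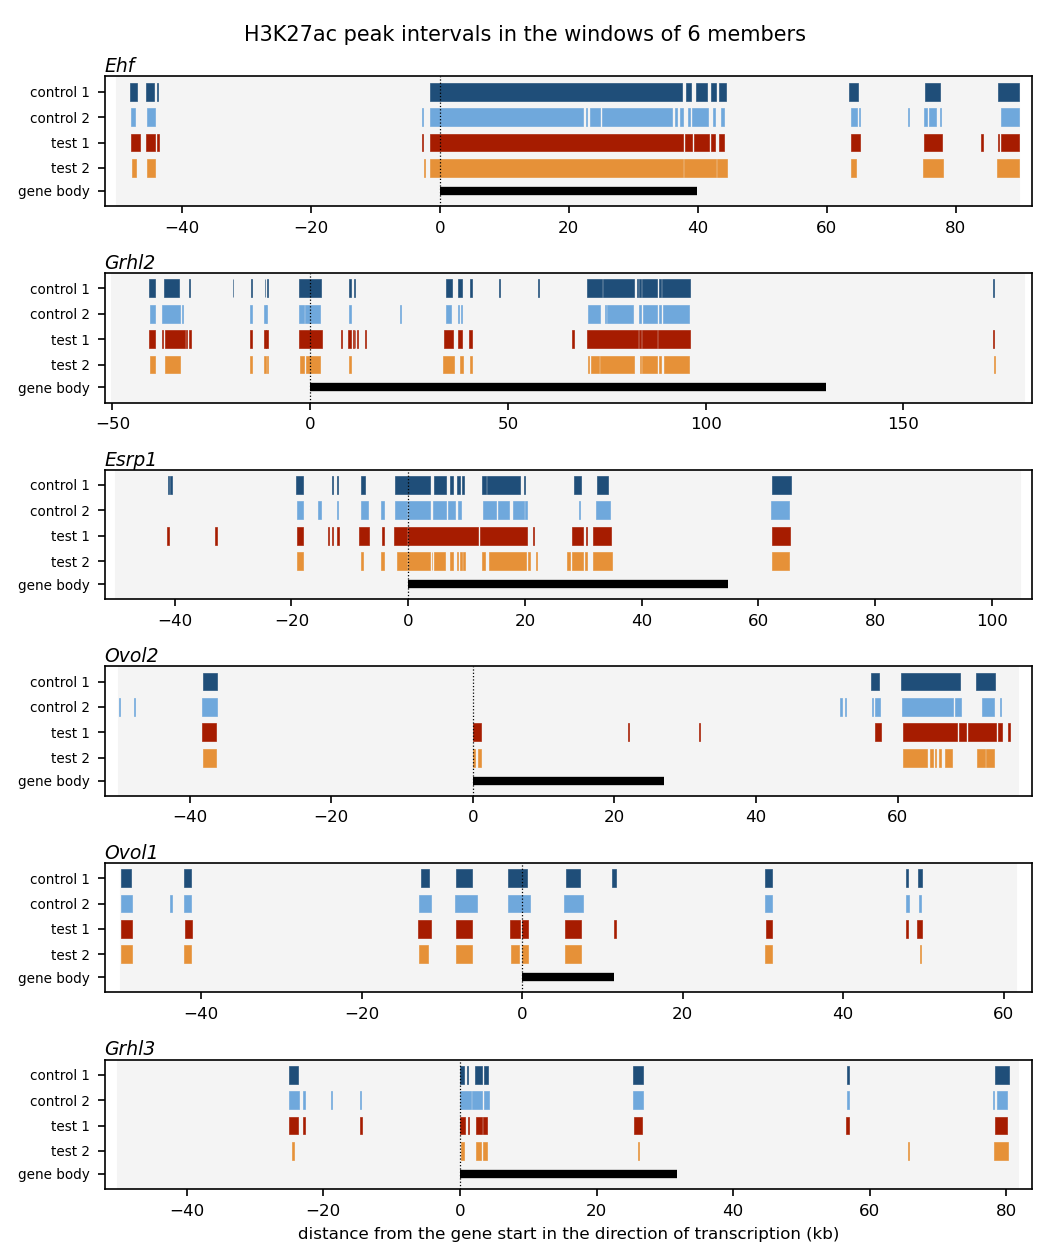
Peak intervals (coloured bars, 1 row per tumor) along the windows of 6 members. The horizontal axis is the distance from the gene start in kb in the direction of transcription, the black bar is the gene body, the dotted line the start and the grey area the window. Ehf is covered along its gene body in all 4 tumors, the Grhl2 domain lies far inside the gene, and at the Ovol2 start bars are seen in the test tumors alone.

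Klf5 was set apart by 1 tumor. Window coverage was 11.1% and 10.1% in the controls against 8.70% and 14.3% in the test tumors. Test 2, the tumor with the fewest peaks genome-wide, was thus highest and test 1 lowest. Of its 13 regions, 8 were in all 4 tumors and 4 in test 2 alone. Its widest region lay over the start (chr14:99297949-99301815, 3867 bp), with 2752 and 2768 bp of peak in the controls against 2944 and 3867 bp in the test tumors. A group of regions between 25.2 and 42 kb downstream of the start lay beyond the gene. The groups overlapped in the window (difference 0.90 points, exact permutation, p = 1).

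Esrp1, which with Esrp2 enforces epithelial splicing, had more of its gene body in peaks in both test tumors. The share was 30.0% and 30.6% in the controls against 46.4% and 37.1% in the test tumors. The difference was 11.4 points, and single pairs of tumors were between 6.496 and 16.4 apart (exact permutation, p = 0.333). In the window the shares were 15.97% and 16.5% against 22.6% and 17.2%, and control 2 and test 2 were only 0.73 points apart. Within 10 kb of the start the groups overlapped, at 50.7% and 58.3% against 70.9% and 47.7%. Thus near the start test 1 was the highest tumor and test 2 the lowest. The promoter domain (chr4:11374908-11389188, 14281 bp, in all 4 tumors) held 9399 and 9826 bp of peak in the controls against 14073 and 8856 bp in the test tumors. Another domain 16.4 kb inside the gene (chr4:11366352-11374497, 8146 bp) held 6333 and 6305 bp against 8146 and 6934 bp. Both test tumors were higher at that inner domain and also at a region 33.3 kb inside (chr4:11351878-11355068), with 1871 and 2397 bp against 3068 and 3174 bp. A narrow region in an intron, 30.5 kb from the start, was in both test tumors and neither control tumor (chr4:11356102-11356506), with 268 and 315 bp of peak. It was no longer test-only with intervals within 1 kb joined. With intervals of at least 1 kb alone it was absent, and the order in the window was lost.

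Esrp2, the paralog with overlapping targets, did not separate the groups. Window coverage was 10.9% and 8.47% in the controls against 12.3% and 8.15% in the test tumors. Again both controls lay between these values. The region over its start was the widest (chr8:106133499-106139331, 5833 bp) and covered 5571 and 5183 bp in the controls against 5833 and 5249 bp in the test tumors. The gene body was in peaks to between 47.2% and 61.3% over the 4 tumors.

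Region by region, 47.2% of the acetylated sites in the member windows were found in all 4 tumors. Overlapping or adjoining peaks from any of the 4 tumors were joined, which gave 161 regions in the windows and 91238 in the genome. Of the 161 regions, 76 (47.2%) were in all 4 tumors, against 38.1% of the regions of the genome. There were 0 regions in both control tumors alone and 2 in both test tumors alone, at Ovol2 and Esrp1. In the genome 3.41% of regions were control-only and 1.47% test-only. Single tumors held 60 of the 161 regions: 10 and 18 were found in the respective controls and 20 and 12 in test 1 and test 2. These are 6.21%, 11.2%, 12.4% and 7.45% of the member regions in that order of tumors, against 10.2%, 9.2%, 7.9% and 8.84% of the regions of the genome. The single-tumor regions had a median width of 211 bp, against 1888 bp for those in all 4 tumors. A further 11 regions were in 3 tumors, and 7 of these were missing in test 2, the tumor with the fewest intervals. Regions missing in test 2 alone made up 4.35% of the member regions and 6.38% of those of the genome. Regions over 5 kb made up 6.83% of the member regions and 2.22% of those of the genome.

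**Figure D3:**
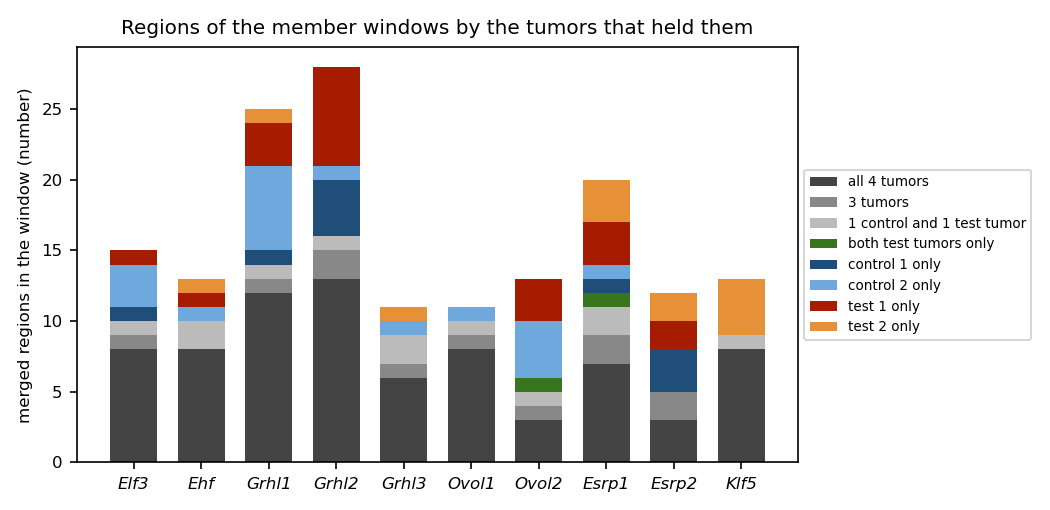
Number of joined regions in each member window (vertical axis), stacked by the tumors that held them. Dark grey, shared by all 4 tumors, is 76 of 161 regions. Regions in both test tumors alone (green) are seen at Ovol2 and Esrp1, with 1 each, and there is none in both control tumors alone.

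At promoters, 9 of 10 members had a peak in all 4 tumors, and Ovol2 was the exception. Over all protein-coding genes 49.6% of promoters had a peak in all 4 tumors. In the 10 kb either side of the start, the control and test tumors did not overlap for 4 members: Ehf and Ovol2 were higher in both test tumors, and Grhl3 and Ovol1 in both control tumors. Among 14792 genes with any coverage there, 20.9% were higher in both test tumors and 11.6% in both control tumors. The median difference was 1.11 percentage points for the members and 0.28 for those genes. Ehf differed little, with 57.5% and 58.1% in the controls against 58.4% and 58.8% in the test tumors.

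Fixed letter strings were searched in the reference sequence on both strands. Those of the members' own families were AACCGGTT for GRHL, CCGGAAGT for ETS, CCACCC for KLF and CCGTTA for OVOL. Those of factors outside the members were CACCTG for the ZEB E-box and TGANTCA for AP-1. RefSeq promoter sequences of 300 bases (250 before and 50 after the start) were matched for 4 of 10 members, with 5 starts in all (Elf3, Ovol2, Grhl3 and Grhl1 with 2 starts). CCACCC was in 4 of the 5, and in 34.1% of 20150 promoters of protein-coding genes. CACCTG was in 2 of the 5, at Elf3 and Grhl3, and in 19.7% of all. The GRHL, ETS, OVOL and AP-1 strings were in 0 of the 5, and in 0.189%, 5.35%, 3.03% and 7% of all promoters. In the central 300 bases of the 106 member regions at least that wide, CACCTG was in 26.4%, CCACCC in 19.8%, TGANTCA in 5.66%, CCGTTA in 2.83%, CCGGAAGT in 0.943% and AACCGGTT in 0%. In the 62930 such regions of the genome these shares were 21.2%, 23.2%, 10.7%, 2.03%, 1.1% and 0.186%. These matches describe letters and are not binding sites.

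The epithelial genes downstream of the members, the EMT factors and the markers of other cell types were described with the same measure. Beside each count below, 17.3% of all genes were higher in both test tumors and 13% in both control tumors in the window, and 20.9% and 11.6% near the start. Means near the start, here and in the plot of gene lists, are over genes with any coverage there. The 15 epithelial genes downstream of grainyhead-like, Ovol and ETS factors had mean coverage within 10 kb of the start of 28.8% and 28.7% in the controls against 29.6% and 29.0% in the test tumors, less than 1 percentage point apart. Over the window their means overlapped, at 18.5% and 18.1% against 19.1% and 18.3%. Near the start 6 were higher in both test tumors and 1, Cldn4, in both control tumors. In the window, 6 of these 15 were higher in both test tumors and 0 in both control tumors. The 3 of these with the largest mean difference were Rab25, a trafficking GTPase of epithelium (37.7% and 38.8% against 43.3% and 39.4%), Spint1, a protease inhibitor (9.71% and 8.29% against 10.96% and 11.1%), and Marveld3, of tight junctions (7.46% and 5.70% against 8.55% and 8.24%). Cdh1 itself stood at 28.8% and 26.9% against 29.2% and 26.5%, with overlap. Of the transcripts that Esrp proteins splice, Cd44 was higher in both control tumors near its start (12.8% and 11.96% against 7.79% and 10.7%) and overlapped in the window (7.27% and 5.41% against 5.75% and 5.07%). Of 5 other splicing regulators, 2 were higher in both test tumors, Rbfox2 (12.9% and 13.1% against 14.7% and 13.4%) and Mbnl2 (15.9% and 16.3% against 16.8% and 17.4%).

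Other epithelial transcription factors (19 genes) were mixed. In the window, 1 was higher in both test tumors, Zfp750, an epidermal differentiation factor (28.2% and 27.96% against 30.3% and 30.7%). Both control tumors were higher for 3: Trp63, the basal cell factor (11.5% and 10.9% against 9.69% and 3.79%), Spdef, of secretory cells (7.92% and 8.77% against 7.61% and 5.30%), and Bcl11a (4.43% and 4.64% against 2.86% and 2.47%). Of the 8 EMT transcription factors, 0 were higher in both test tumors and 3 in both control tumors in the window, Prrx1 (10.1% and 10.6% against 3.95% and 2.12%), Zeb2 (6.86% and 5.29% against 4.57% and 3.27%) and Tcf4 (5.85% and 3.96% against 3.95% and 3.32%). Near their starts 4 of 7 with coverage were higher in both control tumors. Zeb1, the repressor that Ovol factors oppose, was among them, with 4.60% and 10.7% against 3.47% and 0%.

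Markers of fibroblasts, endothelium and myeloid cells were lower in both test tumors near the start, as EMT factors were (17.5% and 17.6% against 13.1% and 5.40%). Over the window, means overlapped for fibroblast (3.73% and 3.54% against 3.61% and 2.45%), myeloid (8.18% and 8.06% against 8.29% and 6.63%) and T cell markers (7.54% and 7.23% against 8.39% and 7.35%). Mean coverage near the start for fibroblast markers was 5.54% and 5.12% in the controls against 3.42% and 1.08% in the test tumors. For endothelial markers it was 4.87% and 4.46% against 2.53% and 2.03%, and for myeloid markers 16.9% and 16.7% against 15.4% and 10.3%. The lists held 6, 6 and 7 genes with coverage there, of which 2, 3 and 3 were higher in both control tumors and 0 of each in both test tumors. Promoter peaks of fibroblast markers numbered 3 and 3 of 8 in the controls against 2 and 0 in the test tumors, and those of endothelial markers likewise 3 and 3 against 2 and 0. Those of T cell markers numbered 1 and 1 of 7 against 0 and 0. The groups did not separate for myeloid markers (6 and 5 of 8 against 5 and 4) or myoepithelial markers (5 and 1 of 7 against 3 and 0). Over all 21938 genes the numbers were 11747 and 11834 against 11878 and 11399. Col1a1, the fibroblast gene with the largest mean difference in the window, overlapped between the groups (17.6% and 16.2% against 18.2% and 11.8%). Those next in size, which did not overlap, were Dcn (0.60% and 1.63% against 0% and 0%), Col1a2 (0.71% and 1.00% against 0% and 0%) and Fap, which was higher in both test tumors (2.23% and 1.15% against 2.59% and 2.24%). Among genes whose groups did not overlap, the endothelial gene with the largest mean difference in the window was Erg, an ETS factor of vessels (1.38% and 0.71% against 0.66% and 0%), and the myeloid one was Spi1, a master factor of myeloid cells (10.3% and 10.8% against 9.93% and 6.18%). Luminal markers stood at 51.8% and 46.7% against 50.9% and 48.7% near the start, and myoepithelial markers at 6.99% and 2.58% against 7.76% and 2.33%, with overlap in each. T cell markers stood at 0.88% and 1.76% against 0.21% and 0.42%, lower in both test tumors, though all 4 means were low. Of the 6 T cell markers with coverage near the start, 1 was higher in both test tumors and 2 in both control tumors. Among tissues absent from the breast, the 2 neuronal markers with coverage near the start stood at 5.64% and 9.90% against 5.51% and 3.27%, lower in both test tumors as well, and the 2 hepatocyte markers at 12.2% and 9.99% against 10.96% and 6.70%, with overlap. The 2 adipocyte markers with coverage there stood at 6.22% and 6.52% against 8.69% and 6.19%, also with overlap. In the window, 1 of 7 luminal markers was higher in both test tumors and 0 in both control tumors, and of 7 myoepithelial markers 0 and 3. Of 7 T cell markers with coverage there, 3 and 2 were so ordered, and of 6 adipocyte markers 1 and 1. Of 5 neuronal markers with coverage there it was 0 and 0, and of 4 hepatocyte markers 0 and 2. For fibroblast, endothelial and myeloid markers the window counts were 1 and 3 of 7, 0 and 5 of 8, and 1 and 3 of 8. The part of these cell types in the differences of the members was not tested. The members as a list, at 30.5% and 31.5% against 34.3% and 27.8% near the start, overlapped between the groups.

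**Figure D4:**
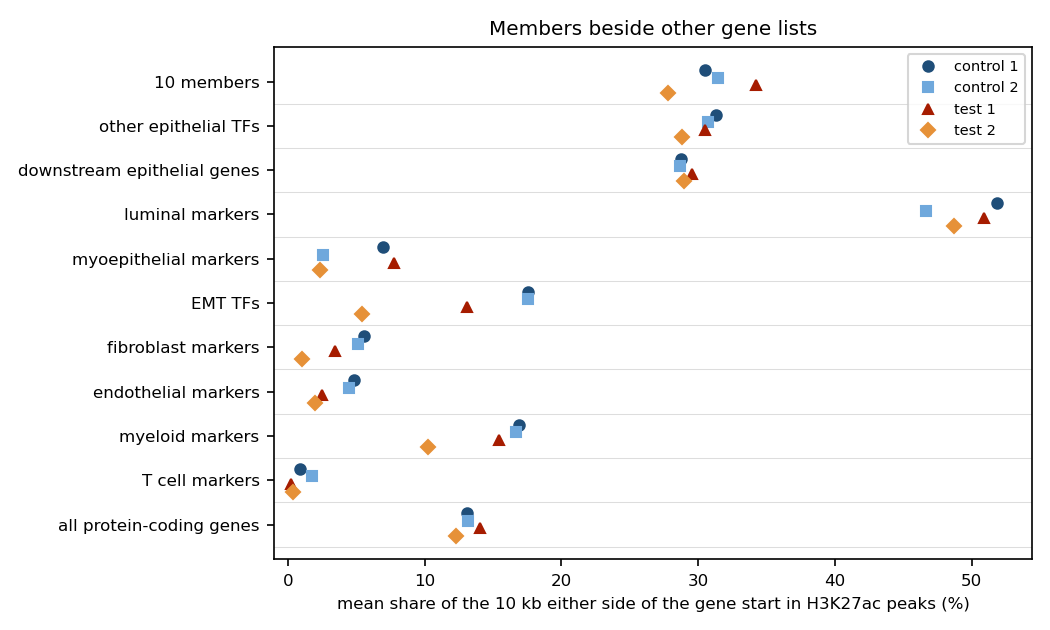
Mean share of the 10 kb either side of the gene start in H3K27ac peaks (percent, horizontal axis) for each gene list (rows), over genes with any coverage, with 1 symbol per tumor. The 10 members and the luminal markers overlap between groups, the downstream epithelial genes lie slightly higher in both test tumors, and EMT factors (EMT TFs), fibroblast, endothelial, myeloid and T cell markers lie lower in both.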

How the data were processed

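H3K27ac ChIP-seq was measured in 2 control and 2 test tumors, grouped by the genotype in the labels. The authors aligned reads to mm10 with BWA, extended them to 200 bp and ran MACS2 on every tumor separately, with its own input as control, at a q value of 0.01. The deposited lists hold positions in bp, with no score, signal or read count. The smallest gap between intervals was 201 bp, and what the authors' cleaning removed is not given in the sources used here. Input libraries were not analysed here.

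From the lists, coverage (percent of bases in peaks), joined regions (present with 1 bp of overlap) and promoter peaks (1 kb either side of the gene start) were computed for all genes of GENCODE release M21 with Python 3.11 code that was tested on simulated intervals. Differences are test minus control means. Groups were compared with two-sided exact permutation tests in scipy and with the order of the tumors, beside all genes or regions. Sequences are those of RefSeq (GRCm38.p6, the assembly of mm10). Tumor numbers only name tumors, so they pair nothing.

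All members were named, as were genes starting in their windows, every group-only region, the widest region of each member and, of each other list, up to 3 non-overlapping genes with the largest difference. Cdh1, Cldn4, Cd44, Zeb1, Col1a1, Gad1 and single values near the start were chosen after their values were seen. Members and lists were chosen with earlier results of these data known. Alternatives changed the flanks, the interval width, number and joining, the overlap, the nearest start, the scaling, the gene start and the tumors left out. The counts of 1 gene list are not reported here.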

Additional observations from a re-analysis of the deposited data

How the results depend on the processing

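Window coverage of Ehf and Esrp1 stayed higher in the mean of the test tumors, and that of Ovol1 lower, in 7 of 7 settings and with each of 4 tumors left out, but the size and the order of the single tumors moved. The members higher in both test tumors numbered 2, and 1 with 100 kb flanks (Esrp1) or with intervals of at least 1 kb alone (Ehf). They numbered 3 with 20 kb flanks (with Ovol2) or after scaling (with Grhl2). Within 10 kb of the start there were 2 as well, but these were Ehf and Ovol2. Those higher in both control tumors numbered 1 (Ovol1), but 0 with intervals within 1 kb joined. There were 2 with 20 kb flanks, within 10 kb of the start or with intervals of at least 1 kb. With 100 kb flanks or after scaling the number stayed at 1, but the member was Grhl1 in place of Ovol1. Control-only regions numbered 0, but 2 with 100 kb flanks and 1 with intervals of at least 1 kb. Test-only regions numbered 2, but 5 with 100 kb flanks and 1 within 10 kb of the start or with intervals joined. With intervals of at least 1 kb the number was also 1, but it was neither of those 2. It was a Grhl1 region (chr12:24562237-24563363) that all 4 tumors held before this limit. Its peaks covered 962 and 928 bp in the controls against 1004 and 1127 bp in the test tumors, either side of 1 kb. The member promoters that were test-only (a result added after seeing the data) numbered 1, and 0 with intervals of at least 1 kb, because the test 2 intervals at Ovol2 are narrower. For the others the cause was not tested.

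Leaving out a tumor leaves its group with 1, so fewer conditions have to hold. The median difference of the members then lay between −1.80 (without test 1) and 2.67 (without test 2), and was −0.29 without control 2. Members higher in the test tumors numbered 2 to 6 and in the control tumors 2 to 6, control-only regions 0 to 19 and test-only regions 3 to 22. Member promoters with a peak in all tumors stayed at 9 and test-only promoters at 1. The lists hold no depth, so a narrower peak cannot be told apart from a less deeply sequenced tumor.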
